A study of Mus musculus with 6 samples.

Results

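The windows described here are the 24597 windows of 2 kb, of 1319486 on chromosomes 1 to 19 and X of mouse build mm9, in which the histone mark H3K4me3 stood above input in mature CD4+ T cells or in mature CD8+ T cells of the thymus. To be taken, a window needed 20 or more H3K4me3 reads in one of the cell types and, there, an RPM (read count scaled to library depth) no less than 4 times that of the matching input, whose count was never set below 3. Both cell types came from C57BL/6 mice, and the labels give no treatment, age or number of animals. Nuclei were digested with micrococcal nuclease to single nucleosomes, which were precipitated with a rabbit polyclonal antibody to H3K4me3. The comparison uses the CD4 H3K4me3 library with the CD4 input, against the CD8 H3K4me3 library with the CD8 input. H3K36me3 libraries of both cell types were used as a separate readout. There was 1 library per group, so no value has a replicate, no p-value is given, and every interval covers counting error only and compares the libraries rather than the cell types.

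H3K4me3 is placed on nucleosomes next to active transcription start sites, while H3K36me3 is laid down over transcribed gene bodies. Thymocytes that recognise MHC class II become CD4+ helper cells under the factor ThPOK, the product of Zbtb7b. Those that recognise MHC class I become CD8+ cytotoxic cells under RUNX3, which silences Cd4 and Zbtb7b and activates the Cd8 genes.

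Gene starts were placed to the nearest kb from general knowledge of the mm9 map, because no mm9 annotation was used here. Of the 135 genes on 9 lists, 41 were placed firmly and are reported, and 2 further genes, Ikzf1 and Runx1, were placed as well. Windows at any other position are given by coordinates alone.

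The marker genes Zbtb7b, Cd8a and Runx3 have promoters in the RefSeq table of build GRCm38.p6. These are shown because H3K4me3 windows at each gene separated the cell types and because Runx3 has 2 listed starts. The second listed starts of Zbtb7b and Runx3 were not matched to windows. Each sequence runs from 250 bases before to 50 bases after the start, 5′ to 3′ on the strand of the gene, which is minus for Zbtb7b and plus for Cd8a and Runx3. Capitals mark CG dinucleotides. The starts of a gene are numbered from the most upstream one.
Zbtb7b start 1: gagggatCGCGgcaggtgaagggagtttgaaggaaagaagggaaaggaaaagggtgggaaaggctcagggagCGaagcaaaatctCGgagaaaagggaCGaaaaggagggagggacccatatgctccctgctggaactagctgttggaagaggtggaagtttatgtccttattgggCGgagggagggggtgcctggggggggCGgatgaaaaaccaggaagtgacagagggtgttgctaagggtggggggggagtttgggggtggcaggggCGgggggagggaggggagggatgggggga
Zbtb7b start 2: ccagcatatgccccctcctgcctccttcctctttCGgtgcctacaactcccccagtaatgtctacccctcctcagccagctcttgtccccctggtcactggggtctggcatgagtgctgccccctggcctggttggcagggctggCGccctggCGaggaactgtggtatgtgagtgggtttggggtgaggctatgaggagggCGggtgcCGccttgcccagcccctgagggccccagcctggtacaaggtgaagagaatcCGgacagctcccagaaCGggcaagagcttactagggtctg
Cd8a: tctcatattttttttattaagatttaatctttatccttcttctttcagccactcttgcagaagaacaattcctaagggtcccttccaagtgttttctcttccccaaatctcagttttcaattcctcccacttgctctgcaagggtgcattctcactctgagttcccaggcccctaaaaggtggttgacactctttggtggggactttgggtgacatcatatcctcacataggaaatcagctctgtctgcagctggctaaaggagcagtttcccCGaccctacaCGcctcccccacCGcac
Runx3 start 1: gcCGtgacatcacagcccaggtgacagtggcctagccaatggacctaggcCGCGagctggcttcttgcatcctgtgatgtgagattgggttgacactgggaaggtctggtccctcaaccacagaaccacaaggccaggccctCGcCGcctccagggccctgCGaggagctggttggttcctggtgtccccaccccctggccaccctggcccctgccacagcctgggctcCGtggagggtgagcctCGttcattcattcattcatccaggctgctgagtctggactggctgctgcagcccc
Runx3 start 2: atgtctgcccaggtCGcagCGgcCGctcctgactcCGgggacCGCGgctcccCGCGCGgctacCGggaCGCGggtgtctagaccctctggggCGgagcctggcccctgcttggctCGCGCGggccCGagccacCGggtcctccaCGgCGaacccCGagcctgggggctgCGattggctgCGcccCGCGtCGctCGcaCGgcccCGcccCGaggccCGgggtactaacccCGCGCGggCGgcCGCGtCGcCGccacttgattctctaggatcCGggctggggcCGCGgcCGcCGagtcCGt

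The Runx3 starts differed most in these letters, with 8 CG dinucleotides at the first start and 45 at the second, against a median of 7 over the 32851 promoters in the table. The Zbtb7b promoters held 8 and 7, and the Cd8a promoter 3. The letters TGTGGT, which are bound by RUNX factors, occurred on either strand 2 times at the first start of Runx3, 1 time at the second start of Zbtb7b and at none of the other 3 promoters shown. Among all promoters in the table, 16.8% held them.

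The labels were first checked at the genes that define the cell types. At the start of Cd4, the coreceptor for MHC class II, the 2 kb window held 1278 reads (119 RPM) in the CD4 library, against 12 reads (0.991 RPM) in the CD8 library, with 6 and 7 reads in the CD4 and CD8 inputs. At the start of Zbtb7b there were 1707 CD4 reads and 22 CD8 reads. At Cd8a, which encodes the alpha chain of the MHC class I coreceptor, there were 20 CD4 reads and 1544 CD8 reads. At the upstream start of Runx3 there were 31 CD4 reads (2.89 RPM) and 2586 CD8 reads (213 RPM). All 4 genes had high H3K4me3 in the cell type that the labels name and few reads in the other, although these few passed the limits for enrichment at Runx3 (31 CD4 reads over 4 CD4 input reads) and Zbtb7b (22 CD8 reads over 0 CD8 input reads). At Cd8a the 20 CD4 reads over 8 CD4 input reads did not pass. A mark carried by more cells and a mark carried more often per cell cannot be told apart in such libraries. Of the markers of B cells, myeloid, erythroid and NK cells, Pax5 and Spi1 could be placed. Neither had a window above input, with 10 CD4 and 1 CD8 reads over 8 kb at Pax5 and 28 CD4 and 28 CD8 reads at Spi1. The corresponding inputs held 31 CD4 and 27 CD8 reads at Pax5 and 27 CD4 and 24 CD8 reads at Spi1.

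**Figure D1:**
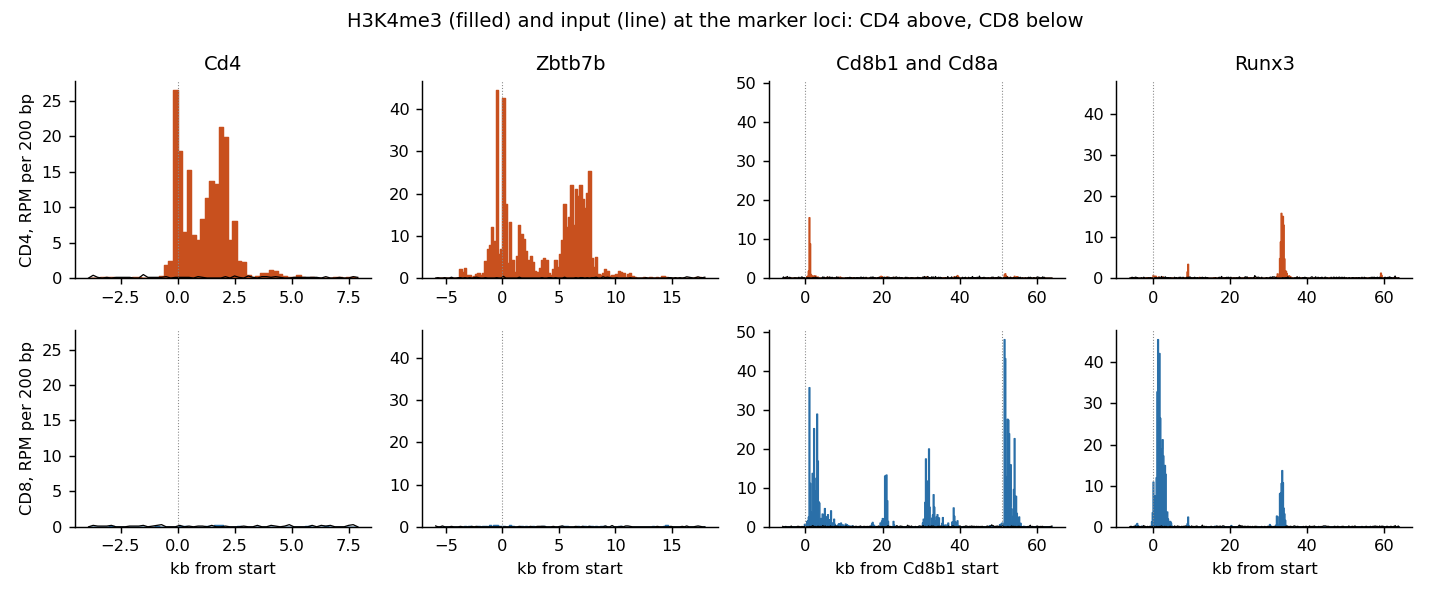
H3K4me3 (filled) and input (line) in RPM per 200 bp, CD4 above and CD8 below, against distance in kb from the placed start, in the direction of transcription. Dotted lines mark the starts, with Cd8a drawn downstream of Cd8b1; Cd4 and Zbtb7b carried the mark in CD4, the Cd8 genes and the upstream start of Runx3 in CD8, and the downstream peak of Runx3 in both.

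The libraries differed in ways that bear on all that follows. The CD4 H3K4me3 library had 10726374 reads on these chromosomes, of which distinct start positions made up 54.4%, and the CD8 library 12113738 reads with 31.4%. Away from marked regions the CD4 library stood at 20.1% of its input level and the CD8 library at 1.50%. Reads inside the windows described here came to 76.7% of the CD4 library and 97.2% of the CD8 library. Over the 19358 windows enriched in both cell types the median log2 ratio of CD4 over CD8 RPM was -0.40. All ratios were centred on this median, and a window was called different when its fold was at least 2 and the exact counting interval of the ratio, with an error rate of 0.001, excluded 1. The intervals given beside values are exact too, at 95%.

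H3K4me3 was enriched in 22948 windows in CD4 and 21007 in CD8. Of the windows enriched in CD4, 84.4% (95% interval 83.9 to 84.8) were enriched in CD8 too. Of those enriched in CD8, 92.2% (91.8 to 92.5) were enriched in CD4 too. They held a median of 283 CD4 reads and 411 CD8 reads. The 3590 windows enriched in CD4 alone were weaker, with a median of 50 CD4 and 14 CD8 reads, and the 1649 enriched in CD8 alone held a median of 19 CD4 and 41 CD8 reads. Being enriched in 1 cell type was not the same as being called: 3083 of the CD4-only windows were called higher in CD4, but 343 of the CD8-only windows were called higher in CD8 and 1290 were not called. Near the limit of 20 reads, 268 CD4-only windows with 20 to 24 CD4 reads lay inside and 270 windows with 15 to 19 CD4 reads and the same fold over input lay outside. Their median CD8 reads were 8.5 inside and 7 outside.

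Of all windows, 6152 were called higher in CD4 (25.0%) and 1248 higher in CD8 (5.07%), while 17197 were not called. Scaling to total reads in place of the centre turned this split into 4452 higher in CD4 and 3851 higher in CD8. The balance between the directions thus rests on the scale. A window taken through 1 cell type alone leans to that cell type by the rule of choice itself. With the centre, 15.8% of the 19358 windows enriched in both cell types were called higher in CD4 and 4.68% higher in CD8. The 5 groups below include windows of both kinds. The calls higher in CD4 were concentrated among weak windows. In 5 equal groups of windows, from the lowest to the highest mean RPM, 47.0%, 39.5%, 22.9%, 10.3% and 5.39% of windows were called higher in CD4, and 3.80%, 7.09%, 7.91%, 5.12% and 1.44% higher in CD8. The median log2 ratio in the lowest of these groups was 1.14. The share of distinct starts and the background level given above also differed between the libraries, and their part in this was not tested.

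**Figure D2:**
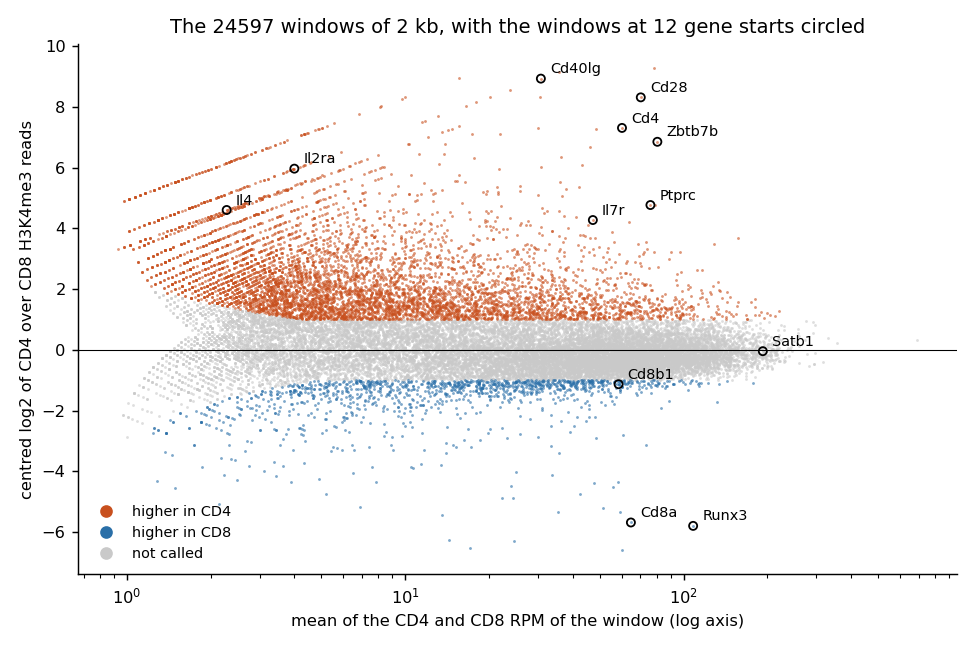
Centred log2 of CD4 over CD8 H3K4me3 reads of each window against its mean RPM on a log axis, with windows called higher in CD4, higher in CD8 or not called in separate colours and 12 gene starts circled. Most called windows lie at low RPM, while Cd40lg, Cd28, Cd4 and Zbtb7b above and Cd8a and Runx3 below stand apart at high RPM.

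Adjacent windows were grouped into 16225 stretches, and the place of a window in its stretch also mattered. The highest window of a stretch was called higher in CD4 in 20.9% and higher in CD8 in 5.02% of stretches. Of the 8372 flanking windows, 33.0% were higher in CD4 and 5.18% higher in CD8. In 70.0% of the 2764 flanking windows higher in CD4 the highest window of the stretch was not called, and in 1.70% it was called the other way. Satb1, a chromatin organiser of thymocytes, shows the form this took. The window at its start held 1746 CD4 and 2692 CD8 reads and was not called. The next window downstream held 509 CD4 reads and 2 CD8 reads, a centred ratio of 380-fold (95% interval 105 to 3149). That ratio was 14.5-fold on a grid shifted by 1 kb, where the window held 487 CD4 and 50 CD8 reads, and 158-fold with 1 read kept per position. In all, 7 of the 8 windows of the Satb1 stretch were higher in CD4. Ikzf1, which encodes the lymphoid factor Ikaros, had 6 of 7 windows higher in CD4. The window before its start held 454 CD4 and 903 CD8 reads and was not called, and the window 2 kb after it held 592 CD4 and 61 CD8 reads. The call at the start of Ikzf1 did not hold on a grid shifted by 1 kb (log2 0.55).

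**Figure D3:**
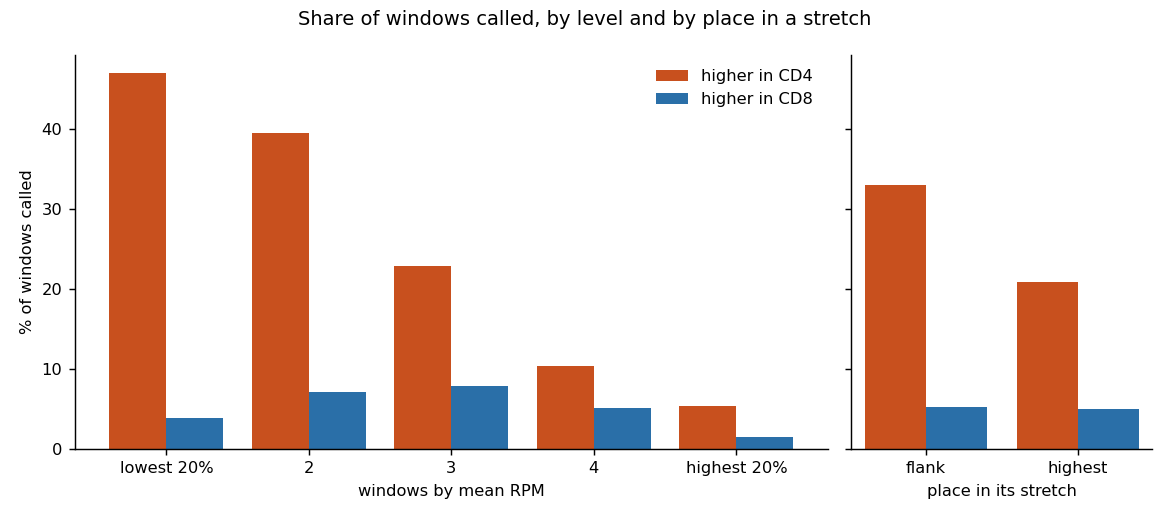
Percent of windows called in each direction, CD4 left of CD8, in 5 equal groups by mean RPM (left) and by place in a stretch of adjacent windows (right, flanking windows and the highest window). The share higher in CD4 is 47.0% in the lowest group and 5.39% in the highest.

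The strongest differences formed runs of adjacent called windows, ranked by the largest lower 95% bound of the fold in any window of the run. The size of these folds depends on repeated positions: with 1 read kept per position, 44 of 45 named windows and gene starts had a smaller fold, by a median factor of 1.83 and at most 4.98. Among the 12 strongest runs higher in CD4, 5 lay at firmly placed helper genes. The first was Zbtb7b (chr3:89182001-89202000), where all 10 windows were higher in CD4 and 2 peaks stood out. The window at the start held 1707 CD4 reads and 22 CD8 reads, and one 5 kb downstream held 1672 CD4 and 4 CD8 reads, a 625-fold ratio (244 to 2295). Cd28 (chr1:60802001-60808000), the costimulatory receptor, held 1499 CD4 and 7 CD8 reads in its strongest window, a 320-fold ratio (155 to 797). Cd40lg (chrX:54464001-54470000), through which helper cells activate B cells, held 657 CD4 and 2 CD8 reads, a 491-fold ratio (135 to 4062). The remaining helper genes were Satb1 (chr17:51958001-51970000) and Cd4 (chr6:124832001-124840000). The run at Satb1 lay downstream of the window at its start, which was itself not called. The 4 windows at Cd4 held between 41 and 1278 CD4 reads, against 1 to 12 CD8 reads, and the window at the start gave a 159-fold ratio (90.8 to 309). With 1 read per position these ratios were 180-fold at Zbtb7b, 99.3-fold at Cd28, 205-fold at Cd40lg and 52.8-fold at Cd4, and on the shifted grid Cd28 gave 32.5-fold and Cd40lg 211-fold.

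The other 7 of these runs were not assigned to genes. The strongest, chr2:43604001-43608000, held 763 CD4 and 2 CD8 reads in its strongest window, and the run at chr4:155386001-155392000 held 384 CD4 and 2 CD8 reads. At chr16:44964001-44968000 the strongest window held 219 CD4 reads and no CD8 read, which is at least 88.0-fold by the lower 95% bound. No CD8 read was counted either in the strongest window at chr14:65060001-65062000 (171 CD4 reads) or at chr7:65652001-65656000 (156 CD4 reads). The whole of the latter run did carry the mark in CD8, with 733 CD4 and 139 CD8 reads (log2 2.98, 2.71 to 3.25). On a grid shifted by 1 kb the window at chr14:65060001-65062000 was not called (log2 0.10), with 897 CD4 and 1247 CD8 reads. The remaining runs lay at chr13:23832001-23834000, with 640 CD4 and 6 CD8 reads, and at chr7:122758001-122760000, with 352 CD4 and 2 CD8 reads. The ratio at chr13:23832001 was 159-fold here, against 2.47-fold on the shifted grid and 32.0-fold with 1 read per position. The longest run higher in CD4 covered 26 windows, chr14:54778001-54830000, but its strongest window reached 11.8-fold (8.26 to 17.4). Next in length were chr9:32504001-32526000 with 11 windows, Zbtb7b with 10, chr7:90798001-90812000 with 7 and Satb1 with 6.

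Among the 12 strongest runs higher in CD8, 4 lay in the Cd8 locus, where Cd8b1 and Cd8a follow each other and encode the beta and alpha chains of the coreceptor. All 17 windows above input between chr6:71272001 and chr6:71328000 were called higher in CD8. The window at the start of Cd8b1 held 321 CD4 and 1052 CD8 reads, a ratio of 2.19-fold in favour of CD8 (1.93 to 2.49). This call did not hold with a centre that follows the read level (log2 -0.96) or on a grid shifted by 1 kb (-0.82). The following window held 23 CD4 and 1404 CD8 reads, 40.8-fold (27.1 to 64.7), against 7.39-fold on the shifted grid. With 1 read per position it held 23 CD4 and 462 CD8 reads. The CD4 library thus had reads in the 2 kb window at the placed start of Cd8b1 and few in the windows beyond it. The windows at Cd8a held 38, 20 and 24 CD4 reads and 1305, 1544 and 579 CD8 reads. Between the genes, the window chr6:71304001-71306000 held no CD4 read and 347 CD8 reads, at least 62.6-fold in favour of CD8 by the lower 95% bound, and the one before it held 14 CD4 and 843 CD8 reads. A further peak at chr6:71292001-71294000 held 12 CD4 and 526 CD8 reads. The 100 kb bins on either side of chr6:71300001 held 9 and 8 windows higher in CD8, more than any other bin, the next holding 5. The longest runs higher in CD8 were at Cd8b1 with 6 windows, between the Cd8 genes with 5, and at Runx3 with 4. Those of 3 windows include Cd8a, chr6:71288001-71294000, chr7:53648001-53654000 and chr11:72904001-72910000.

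Runx3 (chr4:134674001-134682000) was the second run in rank. Its upstream start region held 31 and 10 CD4 reads in 2 adjacent windows, against 2586 and 1448 CD8 reads, and the larger of the ratios was 96.9-fold in favour of CD8 (52.5 to 202), or 49.5-fold with 1 read per position. A window 32 kb downstream, inside the gene, held 800 CD4 and 756 CD8 reads and was not called. Which window holds the second, CG-rich start was not determined. The next window, 34 kb downstream, held 117 CD4 and 68 CD8 reads and was called higher in CD4, at 2.57-fold (1.89 to 3.52). Calls in both directions thus occurred within Runx3. This last window only flanked the uncalled one, however, and 33.0% of all flanking windows were called higher in CD4.

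The remaining 7 runs higher in CD8 were left without gene names. At chr17:84244001-84248000 the strongest window held 5 CD4 and 591 CD8 reads, 79.1-fold (33.7 to 244), or 52.1-fold with 1 read per position. At chr7:53648001-53654000 there were 3 CD4 and 412 CD8 reads, and at chr8:97446001-97450000 there were 22 CD4 and 1216 CD8 reads. The runs at chr7:52346001-52348000 and chr8:124994001-124998000 held 5 and 25 CD4 reads, against 323 and 998 CD8 reads. Those at chr7:50692001-50696000 and chr11:72904001-72910000 held 44 and 36 CD4 reads, against 1359 and 1115 CD8 reads.

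Over the gene lists, 33 of the 41 placed genes had a window above input within 2 kb of the start, of which 13 were higher in CD4, 3 higher in CD8 and 17 not called. These starts are mostly strong windows, and among the upper 50% of stretches by RPM 6.13% were higher in CD4 and 3.24% higher in CD8. The lists were drawn up with earlier results of these data known, so these counts are a description. The calls of S1pr1, Fyn and Dntt given below did not hold when 1 read was kept per position or when total reads set the scale.

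Of the 9 placed helper genes, Cd4, Zbtb7b, Cd40lg, Cd28 and Icos were higher in CD4 and 4 were not called, with a median log2 ratio of 2.73 against 0.12 over all windows. Icos, a costimulatory receptor of helper cells, had 381 CD4 and 86 CD8 reads. Gata3, a factor required for CD4 commitment, had 1750 CD4 and 1913 CD8 reads. Its log2 ratio was 0.45 (0.36 to 0.55). Tox, needed for CD4 development, had 1670 CD4 and 1804 CD8 reads, and Myb 693 CD4 and 1310 CD8 reads. Their log2 ratios were 0.47 (0.37 to 0.57) and -0.34 (-0.47 to -0.21). Satb1, the remaining helper gene not called at its start, had 1746 CD4 and 2692 CD8 reads there. Gata3, Tox, Myb and Satb1 were marked in both cell types.

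Of the 6 placed cytotoxic genes, Cd8a, Cd8b1 and Runx3 were higher in CD8 and none was higher in CD4. Eomes, a factor of cytotoxic and memory cells, had 146 CD4 and 408 CD8 reads and a log2 ratio of -0.90 (-1.19 to -0.63), short of the call. Tbx21, which encodes T-bet, had 99 CD4 and 120 CD8 reads and an interval that held 0 (-0.10 to 0.70). Ifng, the main cytokine that T-bet induces, had no window above input, with 30 CD4 and 7 CD8 reads over 8 kb. The inputs held 40 CD4 and 37 CD8 reads there.

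Genes of the naive state and of exit from the thymus were higher in CD4 in 3 of 7 cases. Il7r, the receptor of the survival cytokine IL-7, showed the largest ratio of them, with 948 CD4 and 73 CD8 reads, 19.4-fold (15.3 to 25.0), or 10.9-fold with 1 read per position. Ccr7, the chemokine receptor that guides cells to lymph nodes, had 1976 CD4 and 816 CD8 reads. S1pr1, the receptor for exit from the thymus, had 2557 CD4 and 1828 CD8 reads, just past the limit of the call at 2.09-fold (1.97 to 2.22). Its activator Klf2 had 1990 CD4 and 2050 CD8 reads (log2 0.54) and was not called. Lef1, Foxo1 and Bach2 were not called either, with centred log2 ratios of -0.14, -0.50 and -0.26.

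Of 4 placed genes of T cell receptor signalling, Ptprc and Fyn were higher in CD4. Ptprc, which encodes the phosphatase CD45 found on all T cells, had 1555 CD4 and 85 CD8 reads, 27.3-fold (22.0 to 34.4), or 9.79-fold with 1 read per position. Fyn, a kinase of the Src family, had 856 CD4 and 548 CD8 reads. Zap70, the kinase bound by the receptor, and Thy1 were not called, with log2 ratios of 0.05 and 0.15. There were 879 CD4 and 1269 CD8 reads at Zap70 and 1290 CD4 and 1736 CD8 reads at Thy1. Runx1, the RUNX factor of early thymocytes, had 2096 CD4 and 953 CD8 reads.

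Of the 13 genes on the list of helper cytokines and their factors, 5 were placed. The placed effector cytokines were mostly unmarked. Il2, Il5 and Il13 had no window above input. Il4 had 49 CD4 reads and no CD8 read, at least 19.1-fold higher in CD4 by the lower 95% bound, at a CD4 level of 4.57 RPM. Il2ra, the high-affinity IL-2 receptor chain that regulatory T cells carry, had 84 CD4 and 2 CD8 reads. It was the single gene placed from the regulatory T cell list. The windows of Il4 and Il2ra lay in the lowest of the 5 groups by mean RPM, where 47.0% of windows were called higher in CD4. Bcl6 had 571 CD4 and 586 CD8 reads and was not called. Among genes of immature thymocytes, Rag1 and Rag2 had no window above input within 2 kb. Over 8 kb Rag2 held 231 CD4 and 260 CD8 reads, against 53 CD4 and 42 CD8 input reads, and Rag1 held 73 CD4 and 24 CD8 reads, against 35 CD4 and 38 CD8 input reads. Dntt had 449 CD4 and 300 CD8 reads (2.24-fold higher in CD4) and Id3 was not called. The housekeeping genes Actb, Gapdh and Hprt were not called, with log2 ratios of -0.06, -0.42 and -0.82.

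**Figure D4:**
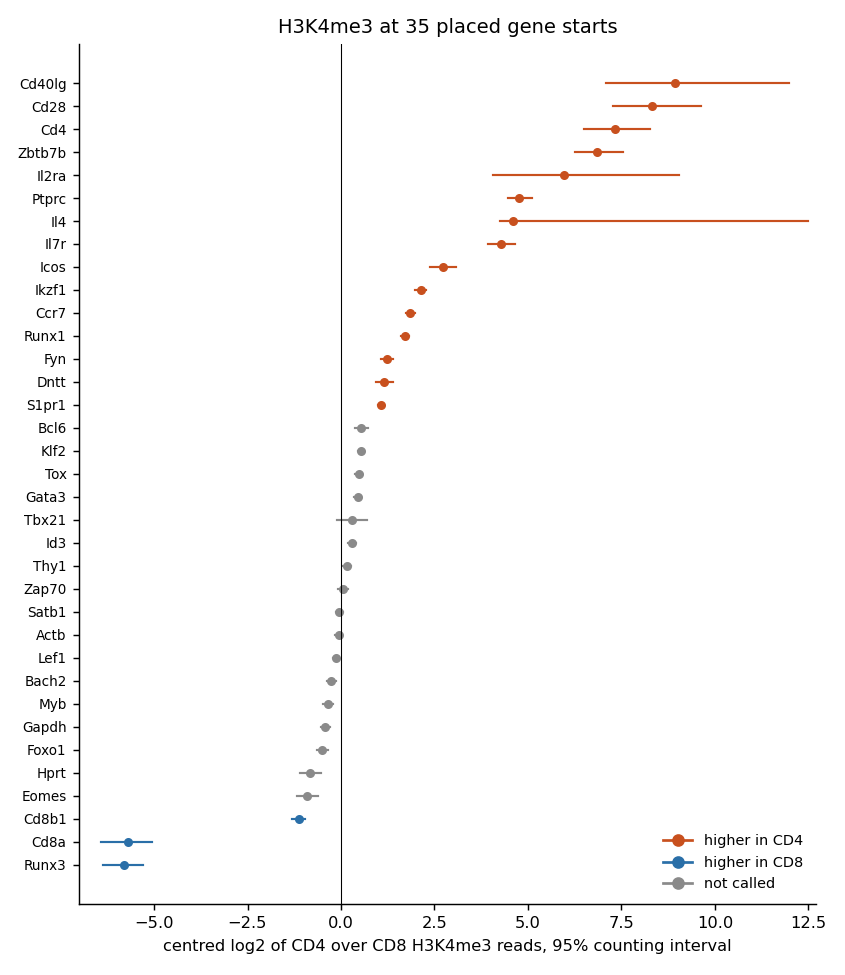
Centred log2 of CD4 over CD8 H3K4me3 reads at the strongest window of 35 placed gene starts, ordered by ratio, with exact 95% counting intervals. The interval of Il4 has no upper bound because no CD8 read was counted; Cd40lg, Cd28, Cd4 and Zbtb7b lie highest and Cd8a and Runx3 lowest.

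Promoter letters were compared for the placed genes with a single start in the RefSeq table. The 4 such genes higher in CD4 held 1 (Il7r), 2 (Dntt), 3 (Il2ra) and 31 (Fyn) CG dinucleotides, and Cd8a held 3. The 10 such genes that were not called held between 7 and 40, with a median of 21.5. The 7 genes without a window above input held a median of 3. Cd4, Cd8b1, Cd40lg and Cd28 were not matched in the table.

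H3K36me3, which did not enter the choice of windows, was counted from 2 to 12 kb after each placed start and scaled to total reads. For short genes this span passes beyond the gene. At the 3 genes with H3K4me3 higher in CD8, H3K36me3 was also lower in CD4. Cd8a had 24 CD4 and 176 CD8 reads (log2 -2.87, -3.55 to -2.25), Cd8b1 had 75 CD4 and 353 CD8 reads, and Runx3 had 25 CD4 and 48 CD8 reads, with intervals below 0. At Runx3 the log2 ratio was -0.94 (-1.69 to -0.21), short of a 2-fold change, with the CD4 level at 0.90 times input. Eomes, Tox, Myb and Lef1, whose H3K4me3 was not called, also had H3K36me3 intervals below 0, while Gapdh and Id3, not called either, had intervals above 0. The helper genes Cd4, Zbtb7b and Cd40lg had more H3K36me3 in CD4, with 199, 71 and 116 CD4 reads, against 62, 23 and 35 CD8 reads. Their log2 ratios were 1.69 (1.27 to 2.12), 1.63 (0.94 to 2.38) and 1.73 (1.18 to 2.32).

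Ccr7 also had an H3K36me3 interval above 0, with 220 CD4 and 170 CD8 reads (log2 0.38, 0.08 to 0.68). At the remaining genes with H3K4me3 higher in CD4 the H3K36me3 interval lay below 0 or held 0. Il7r had 160 CD4 and 308 CD8 reads of H3K36me3, or -0.94 on the log2 scale (-1.22 to -0.66), beside an H3K4me3 log2 ratio of 4.28. Ptprc had 92 CD4 and 155 CD8 reads of H3K36me3, -0.75 (-1.13 to -0.37), beside 4.77 for H3K4me3. Icos also had an H3K36me3 interval below 0. Of the 15 placed genes higher in CD4 by H3K4me3, the H3K36me3 interval lay above 0 at 4, below 0 at 3 and held 0 at 8. Among the 17 placed genes not called by H3K4me3 it lay above 0 at 2, below 0 at 4 and held 0 at 11. Among the 8 placed genes without a window above input it lay above 0 at 2, below 0 at 0 and held 0 at 6. The median H3K36me3 log2 ratio was 0.37 at genes higher in CD4, 0.04 at those not called and 0.64 at those without a window. Over the 12 strongest runs of each direction with 10 kb added to each side, the interval lay above 0 at 4 and below 0 at 2 runs higher in CD4. At runs higher in CD8 it lay above 0 at 1 and below 0 at 7, of which several share flanks in the Cd8 locus. The same was not counted over all runs.

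**Figure D5:**
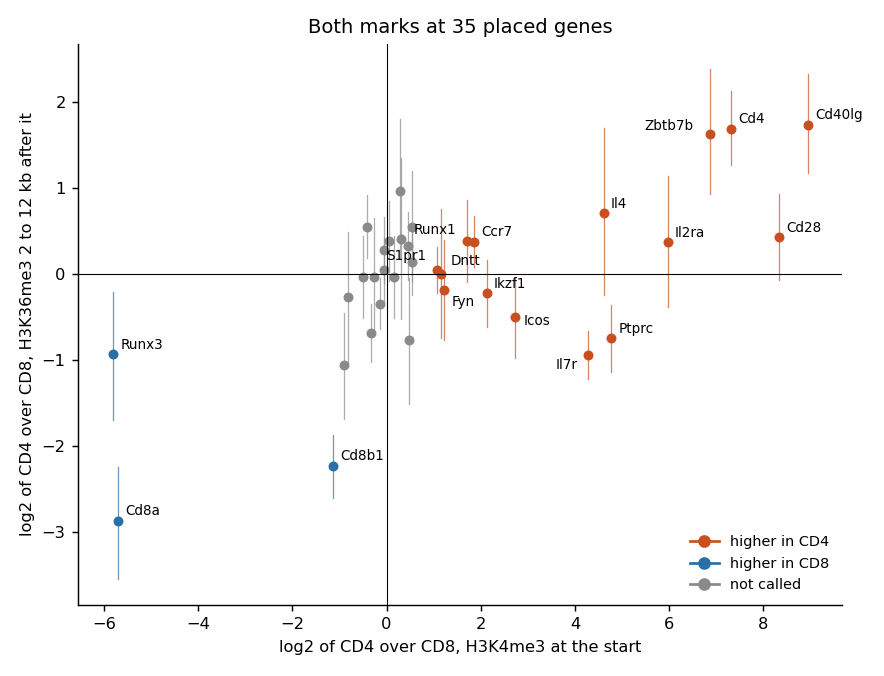
Log2 of CD4 over CD8 for H3K36me3 from 2 to 12 kb after the start, with 95% counting intervals, against the centred log2 for H3K4me3 at the start of 35 placed genes. Cd4, Zbtb7b and Cd40lg lie above 0 on both axes, Cd8a, Cd8b1 and Runx3 below 0 on both, and Il7r and Ptprc above 0 for H3K4me3 and below 0 for H3K36me3.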

How the data were processed

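The deposited values are read positions: per the files, the authors gave the start and end of each aligned read, 1 per line, with no strand or score, in build mm9 per the submitters' processing notes. Every read was 33 bp wide. Neither aligner nor filters are stated in the labels. A read was counted in the 2 kb window holding its midpoint, and coordinates are printed 1-based. CD4 over CD8 ratios have exact Clopper-Pearson intervals conditional on the sum of reads, at 95% where printed and with an error rate of 0.001 for calls, and 0 reads were set to a floor of 3 in a ratio but not in its interval, whose lower bound is printed for such windows. Since reads carry no molecular identifiers, these intervals treat copies of a molecule as separate counts.

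The compared windows, gene lists and loci were chosen with earlier results of these data known. The named runs are the 12 of each direction with the largest lower bound and the 5 longest of each direction. Gene starts are recalled mm9 positions, kept only where they were written to the kb before window counts were seen. A wider set of 123 placements was withdrawn because many were prompted by called windows or by offsets to another build, after values had been seen; Ctla4 was dropped for its spacing from Cd28 in the RefSeq table (GRCm38.p6). The recalled positions had also been compared with that table's coordinates, which set no position, and a few had been recalled with their GRCm38 positions alongside. Of the placed genes on the lists, 2 are not reported here. The order of 28 neighbouring pairs matches it, which is a weak check. The 2 kb reach around a start, the stretches, groups by RPM, 100 kb bins, H3K36me3 span, promoters and letters were chosen after values were seen.

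In simulated Poisson counts for 24597 windows the call recovered 90.0% of 100 windows changed 2.5-fold and 99.0% of 100 changed 4-fold, and it called 2 of 24397 unchanged ones. The simulated counts were independent, with the centre known, and held no repeated positions, background difference or variation between libraries beyond counting. They therefore give no error rate for the calls in these data. The tools were matplotlib 3.10.9, SciPy 1.17.1, pandas 2.3.3, NumPy 2.4.6 and Python 3.11.15.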

Additional observations from a re-analysis of the deposited data

Results flagged for a closer look

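Chromosome Y was outside the comparison. By the same rule, 5 windows of 2 kb on it were enriched for H3K4me3 in CD4 and 4 in CD8, above the inputs of the same cell types. The chromosome held 2390 H3K4me3 reads in CD4 and 556 in CD8, against 3016 and 3165 input reads. In both cell types its share of H3K4me3 reads lay below its share of input reads, at 0.022% against 0.029% in CD4 and 0.0046% against 0.032% in CD8.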

How the results depend on the processing

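The count of windows higher in CD4 (4171 to 6152) stayed within 1.5 times the reported one with 1 read per position, total-read scaling, a trend centre (1868 windows higher in CD8, below the 1.5-fold limit), 8 times input, at least 50 reads, a grid shifted by 1 kb, a thinned CD8 library, background subtraction and a 3-fold call. The count enriched in both cell types (16447 to 20601) did so under the 5 of these that can change it: 1 read per position, 8 times input, 50 reads, the shifted grid and thinning. Windows higher in CD8 numbered 3851 under scaling to total reads and 377 with a 3-fold call, against 1248. Of 45 named windows and gene starts, of which 4 windows are named under both rules, none reversed, but folds moved by over 1.5 times in 34 with 1 read per position, in 22 of 41 on the shifted grid and in 1 with thinning. Their calls held in 37 under the shifted grid, 42 with 1 read per position, 42 with scaling to total reads, 43 at 8 times input (2 not tested), 44 at 50 reads (1 not tested), 44 with the trend centre, and all 45 with thinning or background subtraction. The trend centre took the call from Cd8b1, and the shifted grid took it from Cd8b1, Ikzf1, Fyn and chr14:65060001-65062000, with 4 further windows not tested there. The number of named runs with an H3K36me3 interval on the side of H3K4me3 was 11, and also 11 with 1 read per position, a setting chosen after seeing the data. No paired analysis was possible because each group has 1 library. The depth limits weak windows: against 0 reads only a lower bound can be given.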
